A study of Mus musculus with 11 samples.

Results

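The constitutive proteasome subunits are the proteins from which the ubiquitin-dependent protease of every cell is built. They were taken as every gene on the array whose name is Psma, Psmb, Psmc or Psmd followed by a number, without the interferon-inducible Psmb8, Psmb9 and Psmb10. The rule uses names and no measured value, and it was set with earlier results of these data known. This gave 35 of the 27962 gene names on the array: 15 subunits of the core particle (8 Psma and 7 Psmb), 6 ATPases (Psmc) and 14 subunits named Psmd. All 35 passed the filter on dim probes, with the probe used being above background on all 11 arrays and saturated on none, and are among the 16704 genes tested. The RefSeq table gave the same symbol for the accession of 34 of these probes, and the probe named Psma8 had no match there.

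The study followed mouse liver from the fetus to the adult with 2-colour microarrays. There were 3 arrays at embryonic day 14 (E14.5 in the study's text), 3 at embryonic day 18 (E18.5), 2 at postnatal day 5 (P5, replicates 2 and 3) and 3 at postnatal day 56 (P56), each from a separate biological replicate by its label. The labels name no genotype, strain or treatment for any of the groups, and the methods name C57BL/6 mice for embryonic livers from which cells were isolated. Amplified RNA of each sample was labelled with Cy5 and hybridised against Cy3-labelled RNA of a commercial normal adult mouse liver, and the dyes were not swapped. The labels name liver as the source but hepatoblasts, immature hepatocytes or hepatocytes as the cell type, and the methods name both whole livers and isolated cells, so which of these a sample holds is not settled. Values below are log2 ratios of sample to reference, positive where the sample was the brighter, and a difference between stages is a log2 fold change with its standard error (SE). A gene was called where its p-value from limma, adjusted by Benjamini-Hochberg over all genes tested, was under 0.05.

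The proteasome is a barrel with a cap. The barrel, or core particle, is a stack of rings of alpha (Psma) and beta (Psmb) subunits, and of the beta subunits only Psmb5, Psmb6 and Psmb7 cut proteins, with chymotrypsin-like, caspase-like and trypsin-like activity respectively. The cap, or regulatory particle, has a base with the ring of ATPases (Psmc) that unfolds the substrate, flanked by the scaffold subunits Psmd1 and Psmd2 and the ubiquitin receptor Psmd4. Its lid holds Psmd3, Psmd6, Psmd7, Psmd8, Psmd11, Psmd12, Psmd13 and Psmd14, of which Psmd14 is the deubiquitinase that removes ubiquitin chains. The rule also takes in Psmd5, Psmd9 and Psmd10, which are known as chaperones that help to assemble the ATPase ring and are not part of the finished particle, and Psma8, an alpha subunit known from testis.

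Each subunit was read by a 60-base probe, the brightest where a gene had several. For 15 of the 35 subunits the probe's target spans more genome than its own length, so that it crosses an exon junction and lies in spliced message. The probes of 7 of these subunits are shown because the results below turn on them, and they cover the alpha ring (Psma3), a catalytic beta subunit (Psmb7), the ATPase ring (Psmc5 and Psmc6), the base (Psmd4), the lid (Psmd14) and a chaperone (Psmd9). In the mm7 build given in the array files, their targets are exonic in chr12:68922646-68927208 on the plus strand, chr2:38620757-38641176 on the minus strand, chr11:106371919-106372103 on the plus strand, chr14:40665046-40666872 on the plus strand, chr3:94907958-94908556 on the minus strand, chr2:61727999-61730582 on the plus strand and chr5:122475368-122477508 on the plus strand. They read, 5′ to 3′:
Psma3: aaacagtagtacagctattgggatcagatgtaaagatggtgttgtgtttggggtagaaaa
Psmb7: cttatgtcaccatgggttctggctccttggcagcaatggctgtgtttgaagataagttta
Psmc5: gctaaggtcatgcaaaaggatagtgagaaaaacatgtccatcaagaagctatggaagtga
Psmc6: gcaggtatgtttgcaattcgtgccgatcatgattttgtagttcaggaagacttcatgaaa
Psmd4: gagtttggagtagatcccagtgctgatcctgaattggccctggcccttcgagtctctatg
Psmd14: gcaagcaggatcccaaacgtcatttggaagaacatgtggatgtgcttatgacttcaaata
Psmd9: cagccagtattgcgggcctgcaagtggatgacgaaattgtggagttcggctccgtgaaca

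Since the members moved largely together before birth and apart after it, their promoters were searched for 4 short motifs on both strands, in the 250 bases before and 50 bases after each start in RefSeq (GRCm38.p6). The table held 30 promoters of 28 members and 32851 promoters in all, with no entry for Psma8, Psmb1, Psmb2, Psmb7, Psmc3, Psmd3 and Psmd7. TGACNNNGC, the core of the antioxidant response element that Nfe2l1 and Nfe2l2 bind, was in 16.7% of member promoters and in 12.4% of all promoters. CCAAT, the NF-Y box, was in 36.7% and 37.4%, and TATAAA, the TATA box, in 10% and 13.6%. GGGCGG, the Sp1 box, was in 60% and 35.7%. By class, GGGCGG was in 10 of the 12 promoters of Psmd genes and CCAAT in those of 5 of the 7 alpha subunit genes, namely Psma1, Psma2, Psma3, Psma6 and Psma7. These are matches of letters in one window and say nothing on whether a factor binds there.

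The 150 bases upstream of 5 of these starts are shown, with the motif in capitals on either strand. Psma1 (chr7:114276117-114276266 on the minus strand), Psma2 (chr13:14613092-14613241 on the plus strand) and Psma6 (chr12:55384072-55384221 on the plus strand) are alpha subunit genes with CCAAT, read as ATTGG on the other strand. Psmb5 (chr14:54617996-54618145 on the minus strand), with the chymotrypsin-like site, and Psmd9 (chr5:123228040-123228189 on the plus strand), the one member called higher at E18.5, hold TGACNNNGC at 47 and 31 bases before the start.
Psma1: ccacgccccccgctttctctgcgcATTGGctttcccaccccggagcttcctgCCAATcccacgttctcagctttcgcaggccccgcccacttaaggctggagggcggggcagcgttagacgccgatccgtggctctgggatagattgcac
Psma2: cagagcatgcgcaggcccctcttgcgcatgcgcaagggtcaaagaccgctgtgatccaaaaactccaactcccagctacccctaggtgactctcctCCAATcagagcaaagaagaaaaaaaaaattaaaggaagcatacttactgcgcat
Psma6: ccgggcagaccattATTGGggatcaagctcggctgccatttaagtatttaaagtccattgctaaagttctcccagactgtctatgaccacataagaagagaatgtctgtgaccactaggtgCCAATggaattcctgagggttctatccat
Psmb5: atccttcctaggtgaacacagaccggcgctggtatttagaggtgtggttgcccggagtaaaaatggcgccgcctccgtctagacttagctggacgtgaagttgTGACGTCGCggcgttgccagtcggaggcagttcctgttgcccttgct
Psmd9: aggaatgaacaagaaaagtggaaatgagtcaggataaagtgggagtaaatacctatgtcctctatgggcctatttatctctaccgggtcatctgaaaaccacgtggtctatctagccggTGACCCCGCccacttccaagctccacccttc

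Between 16790 and 25718 of 43379 spots were above background in the sample channel of an array, with P56 replicate 2 the lowest. Over the 35 members, arrays of one stage correlated at r = 0.978 to 0.989 for E14.5, 0.944 to 0.972 for E18.5, 0.825 for P5 and 0.879 to 0.958 for P56. The arrays were scanned in 4 sessions: the first held the 3 E14.5 arrays and E18.5 replicate 1, the second the other E18.5 arrays, the third P5 replicate 2, and the fourth P5 replicate 3 and the 3 P56 arrays. Only E18.5 against E14.5 and P56 against P5 can be compared within a session, and in the other comparisons session and stage cannot be told apart. The hepatocyte label was borne out in part: 16 mature hepatocyte markers had a mean log2 ratio of -3.65 to -3.47 at E14.5 and of -0.11 to 0.31 at P56. For the hepatoblast label, which the E14.5 arrays carry, 8 hepatoblast markers had a mean of 0.64 to 0.78 on these arrays. That was below the 1.96 to 2.05 at E18.5 and the 1.56 to 1.64 on the P5 arrays. In P56 against E14.5, 4 of these 8 were called higher and 3 lower, where 36.1% and 34.8% of all genes were. The list is thus mixed, and its mean does not settle the label. Erythroid genes stood above the reference before birth: 18 erythroid markers ranged from 3.47 to 3.61 on the E14.5 arrays, 3.02 to 3.36 on the E18.5 arrays, 2.27 to 2.87 on the P5 arrays and -0.17 to 0.03 at P56.

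**Figure D1:**
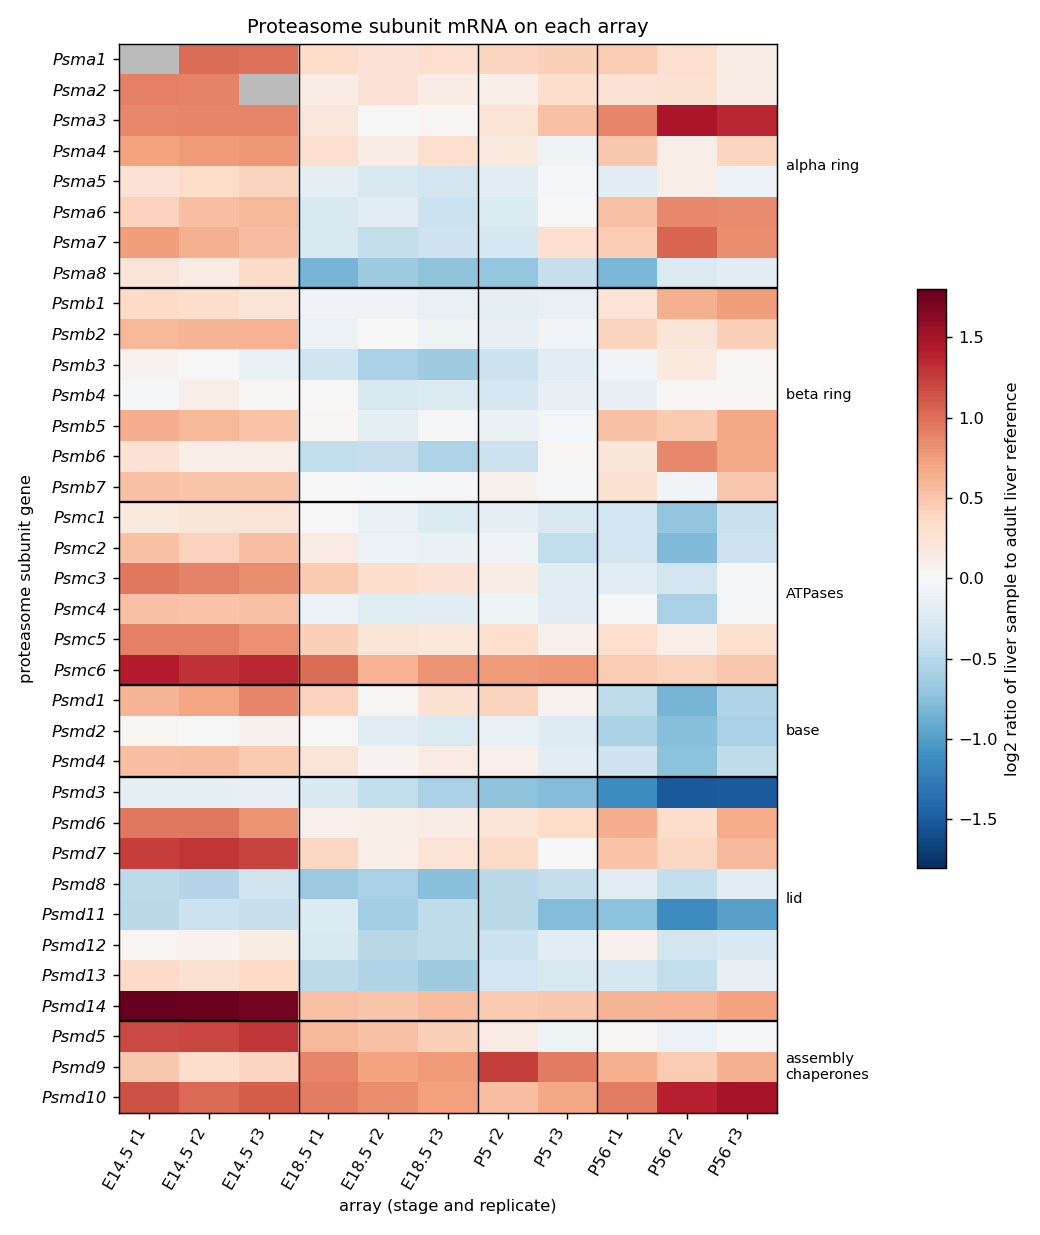
Log2 ratio of sample to adult reference for the 35 subunits (vertical, ordered by their place in the particle) on each of the 11 arrays (horizontal, ordered by stage), red where the sample was brighter, blue where the reference was, and grey for the 2 values left out as outlier spots. Most subunits are red at E14.5 and near 0 at E18.5 and P5, and at P56 core subunits such as Psma3 turn red again while Psmd1, Psmd3 and Psmd4 turn blue.

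From E14.5 to E18.5 the messages of nearly the whole particle fell. Of the 35 subunits 28 were called lower, where 22.8% of all genes tested were, and 1 was called higher, where 24.6% were. The median log2 fold change was -0.55, a 1.46-fold decrease, against -0.01 over all genes tested, and 34 of 35 values were below 0. In RNA from a mixed tissue, fewer cells of a type and less RNA per cell cannot be told apart. The 6 that did not pass were Psmb4, Psmd2, Psmd3, Psmd8, Psmd10 and Psmd11. By class, 14 of 15 core subunits fell (median -0.64), all 6 ATPases fell (median -0.55), and of the Psmd genes 8 of 14 fell and 1 rose (median -0.43).

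In the alpha ring, which gates the barrel, all 8 subunits fell, with a median of -0.76. Psma7 had log2 ratios of 0.76, 0.64 and 0.55 at E14.5, -0.27, -0.44 and -0.37 at E18.5, -0.31 and 0.30 on the P5 arrays, and 0.45, 1.04 and 0.83 at P56. Every E14.5 array was above every E18.5 array, and the decrease was 2.01-fold (log2 -1.01 ± 0.17 SE, adjusted p = 0.00045 by limma). For Psma8 the ratios were 0.23, 0.15 and 0.34 at E14.5, -0.84, -0.63 and -0.73 at E18.5, -0.69 and -0.42 on the P5 arrays, and -0.83, -0.27 and -0.19 at P56. It fell by 0.97 on the log2 scale (adjusted p = 3e-04) with no overlap, but its probe was dim, at a mean log2 brightness of 7.5 against a median of 11.9 for the core particle, and its accession was not matched. Psma4, the least changed of the ring, stood at 0.73, 0.76 and 0.78 at E14.5, 0.29, 0.13 and 0.28 at E18.5, 0.17 and -0.08 on the P5 arrays and 0.49, 0.10 and 0.39 at P56, with E18.5 and E14.5 differing by -0.52 ± 0.11 (adjusted p = 0.0028). Even this smallest difference left a gap between the stages. The other alpha subunits fell by amounts between these, Psma1 by 0.70 and Psma2 by 0.73 over 2 arrays each at E14.5, and Psma3, Psma5 and Psma6 by 0.79, 0.60 and 0.81 on the log2 scale.

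In the beta ring 6 of 7 subunits fell, among them the 3 that cut proteins. Psmb5 (chymotrypsin-like) read 0.65, 0.60 and 0.52 at E14.5 and 0.03, -0.16 and -0.02 at E18.5. Psmb6 (caspase-like) read 0.26, 0.11 and 0.13 and then -0.44, -0.41 and -0.55. Psmb7 (trypsin-like), by the spliced-message probe shown above, read 0.53, 0.50 and 0.49 and then -0.01, -0.02 and -0.04. In none of the 3 did the stages overlap, where 5262 of all 16704 genes tested were lower without overlap. The log2 fold changes were close to one another, at -0.64 ± 0.09 for Psmb5 (adjusted p = 0.00017), -0.63 ± 0.16 for Psmb6 (0.0056) and -0.53 ± 0.12 for Psmb7 (0.0033). Psmb2 had the lowest value of the ring, with 0.60, 0.61 and 0.63 at E14.5, -0.10, -0.0021 and -0.09 at E18.5, -0.15 and -0.06 on the P5 arrays and 0.39, 0.22 and 0.43 at P56, with E18.5 and E14.5 differing by -0.68 ± 0.09 (adjusted p = 6.4e-05). The structural subunits Psmb1 and Psmb3 fell by 0.39 and 0.51 on the log2 scale. Psmb4 was the exception, with -0.04, 0.10 and 0.03 at E14.5, 0.01, -0.28 and -0.24 at E18.5, -0.32 and -0.15 on the P5 arrays and -0.14, 0.02 and 0.03 at P56, where E14.5 and E18.5 overlapped and the difference of -0.20 ± 0.10 did not pass (adjusted p = 0.13).

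All 6 members of the ATPase ring fell. Psmc4 read 0.53, 0.51 and 0.53 at E14.5, -0.10, -0.22 and -0.20 at E18.5, -0.08 and -0.21 on the P5 arrays and -0.04, -0.59 and -0.04 at P56 (E18.5 against E14.5, -0.70 ± 0.13, adjusted p = 0.0011). Its P56 arrays all lay below its E14.5 arrays, with a difference of -0.75 (adjusted p = 0.00035). Psmc5 followed with 0.91, 0.91 and 0.82 at E14.5 and 0.43, 0.22 and 0.20 at E18.5 (-0.60 ± 0.10, adjusted p = 5e-04). Psmc1 fell the least, from 0.17, 0.22 and 0.24 to -0.01, -0.14 and -0.25, by 0.34 on the log2 scale (adjusted p = 0.025), a call lost without E14.5 replicate 2 or 3 or E18.5 replicate 2 or 3 (adjusted p = 0.065 to 0.1) and 0.22 in size with the scan session as a block (adjusted p = 0.33). Psmc2, Psmc3 and Psmc6 fell by 0.53, 0.55 and 0.54 on the log2 scale. The stages did not overlap for any of the 6, where 5262 of all 16704 genes tested were lower without overlap. With the session as a block 3 of the 6 were called, and with scaling between arrays 1.

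The cap was less uniform. In the base, the ubiquitin receptor Psmd4 fell from 0.54, 0.56 and 0.47 on the E14.5 arrays to 0.24, 0.05 and 0.15 at E18.5 (-0.37 ± 0.12, adjusted p = 0.019), but it was -0.15 in the authors' table (adjusted p = 0.6), and the call was lost with the session as a block (0.18) and without E14.5 replicate 1 or 2 or E18.5 replicate 2 or 3 (0.052 to 0.075). The scaffold subunit Psmd1 fell from 0.62, 0.71 and 0.88 to 0.41, 0.03 and 0.27 (-0.50 ± 0.14, adjusted p = 0.011; -0.33 and 0.19 with the session as a block, and not called without E14.5 replicate 3 or E18.5 replicate 2), while Psmd2, the other one, read 0.04, 0.01 and 0.08 and then -0.01, -0.19 and -0.25, which did not pass (adjusted p = 0.13).

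In the lid 5 of 8 subunits fell and the deubiquitinase fell the most. Psmd14 stood at 1.79, 1.77 and 1.73 at E14.5, 0.53, 0.49 and 0.56 at E18.5, 0.47 and 0.49 on the P5 arrays and 0.61, 0.62 and 0.72 at P56. Its decrease of 2.35-fold (log2 -1.23 ± 0.08, adjusted p = 1.8e-07) was the largest of the 35, and the 8 later arrays all lay within 0.47 to 0.72. Psmd7, its partner in the lid, went from 1.24, 1.28 and 1.22 to 0.38, 0.12 and 0.25, with 0.34 and 0.0038 on the P5 arrays and 0.51, 0.37 and 0.59 at P56 (E18.5 against E14.5, -0.995 ± 0.11, adjusted p = 1.9e-05). At the other end was the lid subunit Psmd11, with -0.48, -0.39 and -0.42 at E14.5, -0.24, -0.61 and -0.46 at E18.5, -0.49 and -0.79 on the P5 arrays and -0.73, -1.14 and -0.98 at P56. Its E14.5 and E18.5 arrays overlapped and differed by -0.01 ± 0.13 (adjusted p = 0.97). Psmd3 read -0.17, -0.17 and -0.15 and then -0.27, -0.44 and -0.59, a gap between the stages that did not pass (-0.27 ± 0.12, adjusted p = 0.076). Of the remaining lid subunits Psmd13, Psmd6 and Psmd12 fell by 0.87, 0.79 and 0.49 on the log2 scale, and Psmd8 differed by -0.22 (adjusted p = 0.09).

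The assembly chaperones went different ways. Psmd9 read 0.49, 0.31 and 0.39 at E14.5, 0.87, 0.72 and 0.77 at E18.5, 1.25 and 0.93 on the P5 arrays and 0.64, 0.46 and 0.65 at P56. It was the only subunit gene called higher at E18.5, by 1.31-fold (log2 0.39 ± 0.11, adjusted p = 0.01), and its second probe differed by 0.32 in the same direction. It kept its sign but not its call with scaling between arrays (adjusted p = 0.5), in the Cy5 channel alone (0.16), in the authors' table (0.13) and with the scanner software's processed signals (0.094). Psmd5, in contrast, fell from 1.19, 1.20 and 1.28 to 0.60, 0.53 and 0.44 (-0.70 ± 0.09, adjusted p = 8.1e-05), and Psmd10 read 1.14, 1.03 and 1.09 and then 0.92, 0.84 and 0.74 without passing (adjusted p = 0.14). Psmd5 and Psmd10 are named here after their values were seen.

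**Figure D2:**
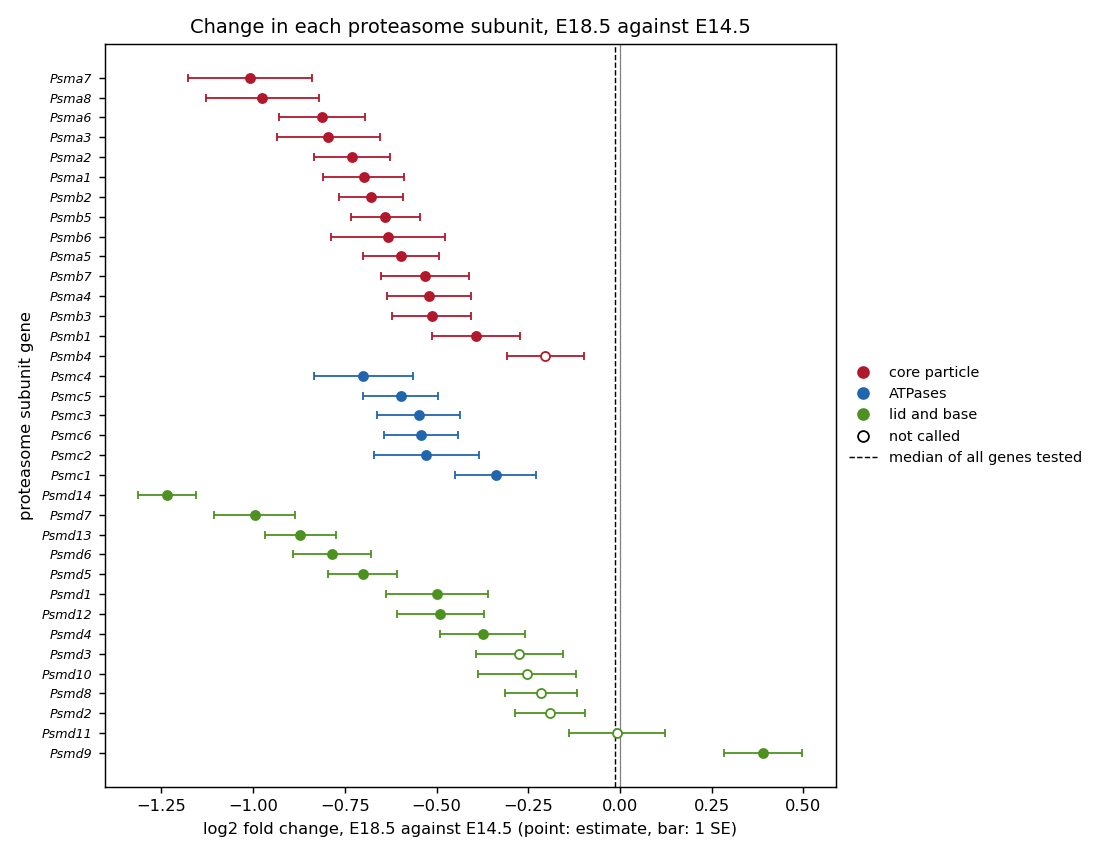
Log2 fold change of E18.5 against E14.5 (horizontal, points, with bars of 1 SE from limma) for each of the 35 subunits (vertical, grouped by class), filled where the adjusted p was under 0.05, with the median of all genes tested as a dashed line. All points but Psmd9 lie below 0, from Psmd14 at -1.23 to Psmd11 at -0.01.

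Within the first scan session, E18.5 replicate 1 lay below the mean of the E14.5 arrays for 33 of the 35 subunits, with a median difference of -0.46. With the session as a block 18 subunits were called lower, where 14% of all genes were. The authors' own normalised table also gave 18, where 6.18% of its genes were called, and scaling between arrays gave 12, where 7.85% were. Without these changes of setting, 22.8% of all genes were called lower and 24.6% higher. Beside these shares, erythroid markers fell for 6 of 18 and rose for 3, and cell cycle genes fell for 6 of 23 and rose for 1. Macrophage markers rose for 12 of 12, hepatoblast markers for 6 of 8 and mature hepatocyte markers for 14 of 16. Their part in the fall of the proteasome messages was not tested.

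From E18.5 to P5 few differences passed the test. Only Psmd5 was called lower, where 6.4% of all genes were, and none was called higher by limma, where 7.32% of all genes were. The median of the 35 was -0.03, and the values ran from -0.49 to 0.35. At an unadjusted p under 0.05 by limma there were 4, of which Psmd9 alone was higher, where 4853 of all 16704 genes tested passed in either direction. By the methods' t-test 4 were higher before adjustment and 0 after it. Psmd5 had ratios of 0.60, 0.53 and 0.44 at E18.5 and 0.15 and -0.09 at P5, a log2 fold change of -0.49 ± 0.11 (adjusted p = 0.011). With 2 arrays at P5, small differences could not be resolved, and without P5 replicate 3 no subunit was called lower and without P5 replicate 2 there were 2.

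From P5 to P56 the class medians parted. Of the core particle 8 of 15 subunits were called higher (median 0.34), where 20.9% of all genes were, and none was called lower, where 24.7% were. Of the ATPases 1 of 6 was called lower and none higher (median -0.20). Of the Psmd genes 5 of 14 were called lower and 1 higher (median -0.02), with all 3 subunits of the base among the lower ones (median -0.47). The lid, with 1 of 8 called lower and none higher, had a median of 0.14. That was near the 0.20 of the alpha ring (3 of 8 higher), while the beta ring had 0.45 (5 of 7 higher). The widest gap was thus between the beta ring and the base. These signs depend on the scaling: when loess was replaced by centring each array on its own median, the median of all genes moved from -0.02 to -0.47, no subunit was called higher, where 3.9% of all genes were, and 23 were called lower, where 53.1% were. The core stayed above the other classes, since the core median was then 0.13 above that of all genes, the ATPase median 0.51 below it and the Psmd median 0.36 below it. By the methods' t-test with Benjamini-Hochberg adjustment no subunit was called in either direction, where 193 of all genes were called lower and 105 higher, and before adjustment 5 subunits were lower and 6 higher.

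The difference between the classes can be read on each array, where both terms come from the same loess fit. That fit varies with brightness, so its effect need not cancel between classes of unlike brightness. The median log2 brightness was 11.9 for the core, 10.8 for the ATPases and 10.4 for the Psmd genes. The median of the core subunits minus that of the ATPases was -0.25, -0.15 and -0.17 at E14.5, -0.35, -0.21 and -0.17 at E18.5, -0.21 and 0.17 on the P5 arrays, and 0.39, 0.74 and 0.46 at P56. The median of the core subunits minus that of the Psmd genes was -0.04, 0.11 and 0.08 at E14.5, -0.22, -0.20 and -0.28 at E18.5, -0.30 and 0.12 on the P5 arrays, and 0.36, 0.67 and 0.60 at P56. In both measures the 3 P56 arrays lay above the 8 others, P5 replicate 3 was next and P5 replicate 2 lay with the fetal arrays. P5 replicate 3 was scanned in the session of the P56 arrays and P5 replicate 2 in another. The core minus ATPase difference was above 0 only on the arrays of that shared session. Between the P5 arrays, session and replicate cannot be told apart. Subunits of a class are not replicates, so no p-value is given for these differences.

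**Figure D3:**
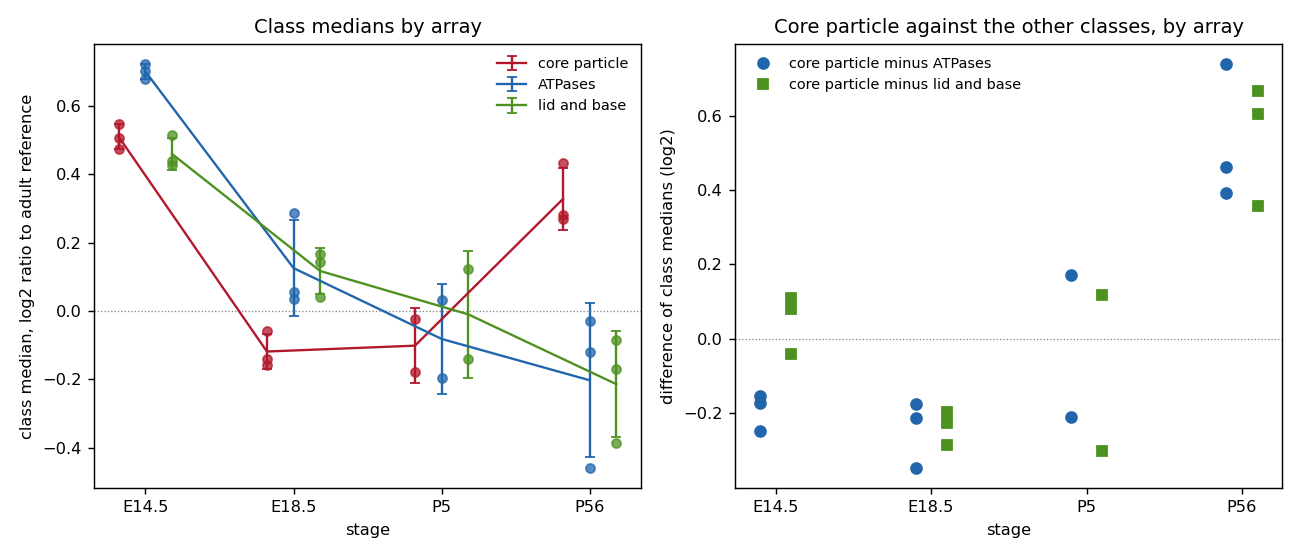
Left, median log2 ratio to the reference of the core subunits, the ATPases and the Psmd genes (lid and base) on each array (small points) by stage, with the mean and SD over the arrays of a stage. Right, the core median minus that of each other class on the same arrays, which is 0.36 or more on the 3 P56 arrays and 0.17 or less on all others; with median centring the level of the core at P56 turns below that at P5, but its place above the other classes does not.

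As levels, the core median was 0.51 ± 0.04 (SD, n = 3) at E14.5, -0.12 ± 0.05 (n = 3) at E18.5, -0.10 ± 0.11 (n = 2) on the P5 arrays and 0.33 ± 0.09 (n = 3) at P56. The ATPase median went from 0.70 ± 0.02 at E14.5 through 0.13 ± 0.14 and -0.08 ± 0.16 to -0.20 ± 0.23, and the Psmd median from 0.46 ± 0.05 through 0.12 ± 0.07 and -0.01 ± 0.19 to -0.21 ± 0.16. All 3 medians had thus dropped by E18.5, and at P56 the core stood above the reference while the others stood below it. The core minus ATPase difference of P56 against P5 was 0.54, and over 27 alternatives it lay between 0.44 and 0.77. The highest value is that of P56 against E18.5 in its place, which is another comparison. The 27 also include leaving out single E14.5 or E18.5 arrays, which do not enter this difference and so could hardly change it. The core minus Psmd difference was 0.36, between 0.34 and 0.50.

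Among the alpha subunits 3 of 8 rose after P5, while the other 5 did not pass. Psma3 read 0.21, -0.00086 and 0.04 at E18.5, 0.25 and 0.52 on the P5 arrays and 0.89, 1.46 and 1.35 at P56, a 1.8-fold increase (log2 0.85 ± 0.16, adjusted p = 0.001) that was 0.21 with median centring (adjusted p = 0.23). Psma7, with the ratios given above, rose 1.72-fold (0.78 ± 0.19, adjusted p = 0.0055), or 0.28 with median centring, and 0.48 without P5 replicate 2 or with the session as a block, where it was not called (adjusted p = 0.093 and 0.11). Psma6, named after its values were seen, read -0.25 and 0.01 on the P5 arrays and 0.53, 0.86 and 0.86 at P56 (0.87 ± 0.13, adjusted p = 0.00024), or 0.23 with median centring. In all 3 the P56 arrays lay above both P5 arrays, as they did for 4733 of all 16704 genes tested. Another alpha subunit, Psma1, also named after its values were seen, read 0.39 and 0.43 on the P5 arrays and 0.46, 0.29 and 0.13 at P56, which overlapped (-0.12 ± 0.11, adjusted p = 0.42). Psma2, Psma4, Psma5 and Psma8 lay between 0.01 and 0.28.

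Among the beta subunits 5 of 7 rose, including 2 of the 3 that cut proteins. Psmb5 went from -0.12 and -0.03 at P5 to 0.52, 0.47 and 0.70 at P56, a 1.56-fold increase (0.64 ± 0.11, adjusted p = 0.00045), which turned to -0.08 with median centring. Psmb6 went from -0.39 and 0.03 to 0.22, 0.86 and 0.69, a 1.71-fold increase (0.77 ± 0.17, adjusted p = 0.0037), or 0.19 with median centring and 0.56 without P5 replicate 2 (adjusted p = 0.059). Psmb7 read 0.07 and -0.02 on the P5 arrays and 0.27, -0.06 and 0.49 at P56, where the stages overlapped and the difference of 0.21 ± 0.13 did not pass (adjusted p = 0.23). Without P56 replicate 2, the array with the fewest spots above background, it was 0.35 and passed (adjusted p = 0.02). Whether the catalytic subunits differ in this step was not tested. Psmb2 rose by 0.45 ± 0.10 (adjusted p = 0.0029; -0.45 with median centring, which was 0.02 above all genes), Psmb1 by 0.70 (adjusted p = 0.0013) and Psmb3 by 0.34 (0.038), and Psmb4 differed by 0.20 ± 0.12 (adjusted p = 0.18). With median centring Psmb1 was 0.06 and Psmb3 -0.15, and the Psmb3 call was lost without P5 replicate 2, P56 replicate 2 or 3, E14.5 replicate 2 or E18.5 replicate 2 (adjusted p = 0.05 to 0.27).

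The ATPases and the base did not share this rise. Psmc1 read -0.18 and -0.28 on the P5 arrays and -0.33, -0.71 and -0.40 at P56 (-0.25 ± 0.12, adjusted p = 0.12). Psmc5 read 0.30 and 0.08 and then 0.30, 0.11 and 0.28 (0.04 ± 0.11, adjusted p = 0.78), the only ATPase with a value above 0. Psmc2, Psmc3 and Psmc4 lay at -0.25, -0.16 and -0.08. Psmc6, the one called, had stood at 1.42, 1.31 and 1.36 at E14.5 and 1.01, 0.63 and 0.81 at E18.5, and read 0.77 and 0.78 at P5 and 0.46, 0.41 and 0.49 at P56 by its bright junction probe (-0.32 ± 0.11, adjusted p = 0.036). A second, dimmer Psmc6 probe, further along the gene and without a junction, differed by 1.38 in the other direction, and averaging both gave 0.53 (adjusted p = 0.0016), so that the direction for Psmc6 rests on which probe is used. Even by the bright probe the call was lost without either P5 array, any one P56 array or E18.5 replicate 3 (adjusted p = 0.051 to 0.12).

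In the base all 3 subunits fell. Psmd1 read 0.40 and 0.07 on the P5 arrays and -0.46, -0.83 and -0.54 at P56, a 1.79-fold decrease (log2 -0.84 ± 0.16, adjusted p = 0.00099). Psmd2 went from -0.13 and -0.24 to -0.57, -0.77 and -0.59 (-0.46 ± 0.11, adjusted p = 0.0044), and Psmd4 from 0.09 and -0.21 to -0.38, -0.74 and -0.46 (-0.47 ± 0.13, adjusted p = 0.012). The Psmd4 difference was -0.32 without P5 replicate 2 or with the session as a block (adjusted p = 0.15) and -0.18 in the authors' table (0.57). With scaling between arrays neither Psmd2 (0.16) nor Psmd4 (0.21) was called, and the Psmd2 call was also lost in the authors' table (0.14) and in the Cy5 channel alone (0.066). No P56 array reached the level of a P5 array in any of the 3, where this held for 5503 of all 16704 genes tested. With median centring the 3 differences were -1.75, -1.23 and -1.27, further below all genes.

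In the lid Psmd3 fell alone, from -0.72 and -0.78 to -1.13, -1.52 and -1.50, a 1.55-fold decrease (log2 -0.63 ± 0.13, adjusted p = 0.0022). The Psmd3 difference was -0.23 with scaling between arrays, and its call was lost in 2 of 27 alternatives. The deubiquitinase Psmd14 differed by 0.17 ± 0.09 (adjusted p = 0.13), Psmd7 by 0.32 ± 0.12 (adjusted p = 0.053; -0.20 by its second probe) and Psmd11 by -0.32 ± 0.15 (adjusted p = 0.098), while Psmd6, Psmd8, Psmd12 and Psmd13 lay between 0.03 and 0.27. Of the chaperones Psmd9 fell by 0.51 on the log2 scale (adjusted p = 0.0045), from its highest level at P5, or by 0.35 without P5 replicate 2 (adjusted p = 0.071). Psmd10, named after its values were seen, rose from 0.54 and 0.70 to 0.92, 1.40 and 1.48 (0.65 ± 0.15, adjusted p = 0.0041), and turned to -0.26 with median centring.

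**Figure D4:**
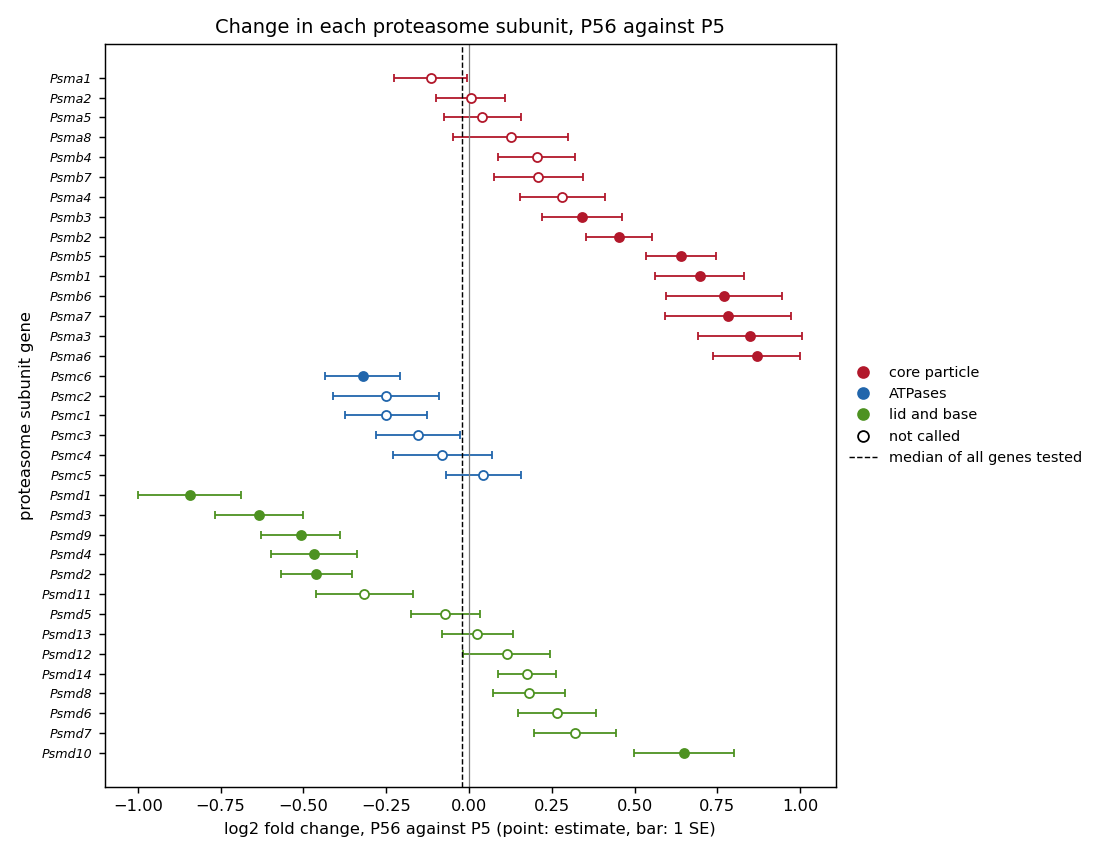
Log2 fold change of P56 against P5 (horizontal, points, with bars of 1 SE from limma) for each of the 35 subunits (vertical, grouped by class), filled where the adjusted p was under 0.05, with the median of all genes tested as a dashed line. Core subunits lie mostly to the right and the base to the left, from Psma6 at 0.87 to Psmd1 at -0.84; with median centring the median of all genes is -0.47 in place of -0.02 and no subunit is called higher.

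Within the last scan session, where P5 replicate 3 is the one P5 array, the core median was 0.40 higher at P56 and those of the ATPases and Psmd genes were -0.04 and 0.01. Without P5 replicate 2 the number called lower fell from 6 to 3. In P56 against P5 over all arrays, 24.7% of all genes were called lower and 20.9% higher. Called lower were 23 of 23 cell cycle genes, 16 of 18 erythroid markers and 11 of 14 other haematopoietic markers. So were 7 of 12 macrophage, 8 of 10 endothelial and 6 of 9 stellate markers. Of the hepatoblast markers 7 of 8 fell and 1 rose, and of the mature hepatocyte markers 8 of 16 rose and 2 fell. Their part in the split between the classes was not tested.

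**Figure D5:**
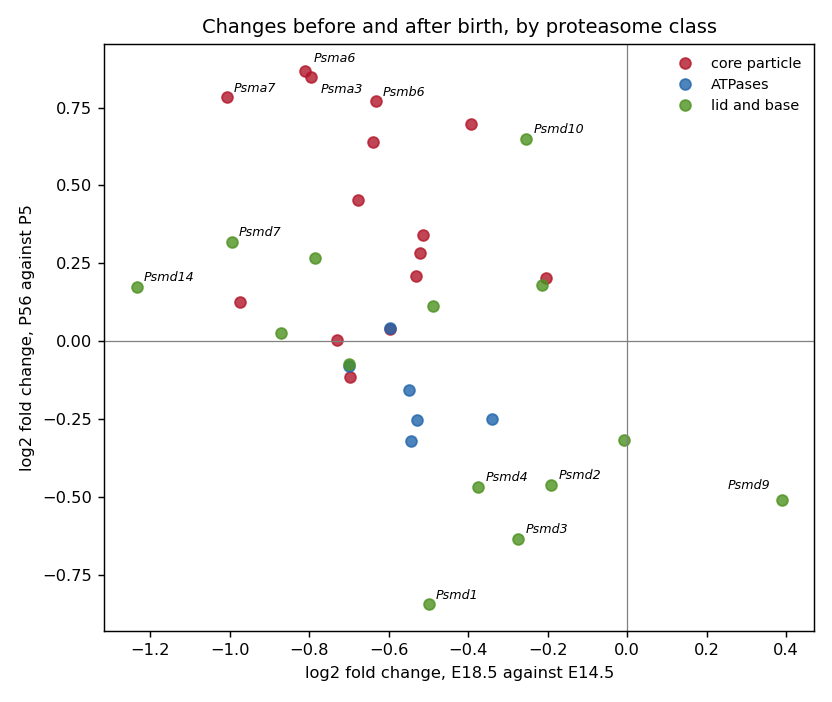
Each subunit's log2 fold change of E18.5 against E14.5 (horizontal) and of P56 against P5 (vertical), coloured by class; the axes share no arrays. Core subunits that fell before birth lie mostly above 0 on the vertical axis and the ATPases and base mostly below it, with Psmd9 alone at the lower right; with median centring the median of all genes on the vertical axis is -0.47 and the core median turns below 0.

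Between the ends of the course, the class medians of the cap lay further below their starting level than that of the core. In P56 against E14.5, 22 subunits were called lower, where 34.8% of all genes were, and 2 higher, where 36.1% were. All 6 ATPases were lower, with a median of -0.83 (1.77-fold), though Psmc6 was at 0.04 with its probes averaged and at 0.29 in the authors' table. Also lower were all 3 subunits of the base, with a median of -1.05 (2.07-fold), and 6 of 8 of the lid. Of the core 6 of 15 were lower and 2 higher, with a median of -0.06. The core was not uniform. In the alpha ring 5 of 8 were lower (median -0.41) and in the beta ring 1 of 7 (median -0.02). The lid median was -0.57, so the alpha ring lay nearer to the lid than to the beta ring. Psmd1 was the lowest at -1.35 ± 0.14 (2.54-fold, adjusted p = 3.5e-06), ahead of Psmd5 at -1.26 (adjusted p = 1.9e-07), Psmd3 at -1.22 (2.33-fold, adjusted p = 1.9e-06) and Psmd14 at -1.11 (adjusted p = 1.3e-07). Psmb5 differed by -0.02 (adjusted p = 0.82), its P56 arrays spanning those of E14.5.

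The 2 called higher were Psma3, at 0.36 (adjusted p = 0.038), from 0.86, 0.88 and 0.88 at E14.5, and Psmb6, at 0.42 ± 0.16 (adjusted p = 0.029). The stages overlapped for Psmb6 and not for Psma3. Both turned below 0 with median centring (-0.25 and -0.11), and Psma3 did so also in the Cy5 channel alone (-0.04). The count of 2 was 0 without E14.5 replicate 2 or 3 or P56 replicate 3, 1 without E14.5 replicate 1, E18.5 replicate 3 or P56 replicate 2, and 5 without P56 replicate 1. With median centring the core median was -0.72 and those of the ATPases and Psmd genes -1.55 and -1.37, beside -0.33 for all genes, so that the core was then below all genes too, though less far. In P56 against E18.5, which uses 3 arrays on each side and was chosen after seeing the data, 10 subunits were called lower (33.6% of all genes) and 12 higher (31.2%), with 8 of 15 core subunits higher and 4 of 6 ATPases lower.

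Other genes of the pathway were counted from lists. Of the chaperones that build the core particle, 4 were found on the array (Psmg1 as Dscr2, Psmg2 as Tnfsf5ip1, Psmg3 as 1810042K04Rik, and Pomp). All 4 fell from E14.5 to E18.5, where 22.8% of all genes were called lower. Psmg3 was at -1.13 ± 0.13 (adjusted p = 1.9e-05), Psmg2 at -0.91 ± 0.09 (9.6e-06) and Pomp at -0.54 ± 0.12 (0.0037). From P5 to P56 Psmg3 rose by 0.97 ± 0.14 (adjusted p = 0.00019), Pomp, which matures the beta ring, by 0.75 ± 0.12 (5e-04) and Psmg1 by 0.29 ± 0.09 (0.018). With median centring these were 0.09, 0.32 and -0.58, beside -0.47 for all genes, so that Psmg3 and Pomp stayed above all genes and Psmg1 did not.

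Of 11 factors that bind the finished particle or deliver substrates, 4 fell and 1 rose from E14.5 to E18.5, and 6 fell and 1 rose from P5 to P56, where 22.8% and 24.6% of all genes were called lower and higher in the first step and 24.7% and 20.9% in the second. The deubiquitinase Uchl5, held at the base by Adrm1, fell in both steps, at -0.75 ± 0.11 (adjusted p = 2e-04) and -0.83 ± 0.13 (adjusted p = 0.00025). With median centring 11 of 11 were called lower from P5 to P56, where 53.1% of all genes were.

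A list of ubiquitin genes, the enzymes that activate ubiquitin and Vcp, an ATPase that extracts ubiquitinated proteins, held 7 genes tested. In the first step Ube1x, the main activating enzyme, fell by 0.37 on the log2 scale (adjusted p = 0.013). In the second 5 of 7 fell and none rose, where 24.7% and 20.9% of all genes were called lower and higher. Among those that fell were the ubiquitin gene Ubb at -1.13 ± 0.11 (adjusted p = 1.2e-05) and Vcp at -0.93 ± 0.13 (0.00011). Ubb shares near-identical coding repeats with its paralogs, so its probe may read more than 1 gene.

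The alternative parts of the particle, used in immune cells, included genes that rose before birth. All 3 interferon-inducible subunits rose from E14.5 to E18.5, where 24.6% of all genes were called higher. Psmb8 rose by 0.94 ± 0.17 (adjusted p = 0.00082), Psmb9 by 0.90 ± 0.15 (0.00047) and Psmb10 by 0.35 ± 0.11 (0.017). Their levels stayed below the reference at both stages, and none was called from P5 to P56. With scaling between arrays none of the 3 was called in the first step. Among the 4 activators and inhibitor on the array, Psme1, a cap that takes the place of the ATPase one, rose by 1.17 ± 0.08 (adjusted p = 4.8e-07), while the nuclear activator Psme3 fell by 0.40 on the log2 scale (adjusted p = 0.0046). From P5 to P56 Psme3 fell by 0.80 on the log2 scale (adjusted p = 1e-04) and the inhibitor Psmf1 by 0.76 (adjusted p = 0.0016). The part of macrophage and other blood cell markers, of which 12 of 12 and 9 of 14 rose from E14.5 to E18.5, was not tested.

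Nfe2l1 and Nfe2l2 encode factors that transcribe subunit genes, and Ddi2 and Ngly1 encode the protease and the glycanase that activate Nfe2l1. From E14.5 to E18.5, when the subunits fell, Nfe2l1 rose by 0.76 ± 0.10 (adjusted p = 5.9e-05) and Ddi2 by 0.66 ± 0.11 (adjusted p = 0.00058). From E18.5 to P5 Ddi2 rose by 0.70 ± 0.13 (adjusted p = 0.0047) and Ngly1 by 0.43 ± 0.12 (adjusted p = 0.031). From P5 to P56 Ngly1 rose by 0.65 ± 0.12 (adjusted p = 0.00085), which turned to -0.25 with median centring, and Nfe2l2 was not called in any of these steps with loess. With median centring, which lowered the median of all genes in this step, Nfe2l2 was called lower from P5 to P56 (-1.12, adjusted p = 0.0024 by limma). So were Nfe2l1 (-0.71, 0.00061) and Ddi2 (-0.58, 0.012). From E18.5 to P5 the rise of Ngly1 was then not called (0.19) and that of Ddi2 was (0.024).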

How the data were processed

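The authors hybridised amplified liver RNA (Cy5) and an adult liver reference (Cy3) to 11 Agilent 4x44k arrays, and the deposited intensity values came from Feature Extraction 9.5.1.1 (per the file headers), with probe coordinates on mm7. A second deposited file, also by the authors, holds lowess-normalised log2 ratios of test over control, averaged over the probes of each of 28050 genes (per the file header), whose centring between arrays is unstated; its columns had medians of -0.06 to 0.05 and correlated at r = 0.823 to 0.936 with the arrays they are named for, 2 of them more with another replicate, and it was used as an alternative only.

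Mean signals were corrected with normexp (offset 50) on the median background and normalised by loess within arrays in limma 3.58.1 (R 4.3.3), with control spots weighted 0 and outlier spots left out. Spots of a probe were averaged. Probes above background on all arrays of at least 1 stage, with at most 1 missing array per stage, were kept, and each gene was read by its brightest probe. This gave 16704 genes, 265 with a missing value; Psma1 lacked E14.5 replicate 1 and Psma2 lacked E14.5 replicate 3, and their fits used 2 arrays there. All 4 stages were fitted together with lmFit and eBayes, and p-values were adjusted by Benjamini-Hochberg at 0.05. The scripts were tested on simulated data. Values of some single genes of the pathway lists are not reported here. Precision is limited by the number of arrays.

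Values on every array are given for Psmb5, Psmb6, Psmb7, Psmd4 and Psmd14, for the 2 subunits of each of Psma, Psmb, Psmc and Psmd with the largest and the 1 with the smallest change in E18.5 against E14.5, and for subunits called against the majority in any comparison. The members, the 6 pathway lists and the 8 marker lists were chosen with earlier results of these data known. The methods' t-test was run on the same values. Sequences come from the array files and from RefSeq (GRCm38.p6). Alternatives covered background, normalisation, filters, probes, batches, blocks and each array left out.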

Additional observations from a re-analysis of the deposited data

How the results depend on the processing

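Values are log2 medians unless called counts. A count was taken as the same within a set ratio of its main value. A median, or a difference of medians, was the same when it moved by less than the SD between arrays, whatever its sign. Apart from the arrays left out, 381 were the same, 32 counts were smaller, 7 counts were larger and 54 medians moved by more than that SD. Another 2 reversed, meaning a sign change from a main value beyond the SD, and sign changes of smaller values are not among them. With 1 array left out these numbers, in the same order, were 333, 8, 3, 8 and 0. Over the 35 single subunits, 1941 values kept their call, 140 lost it, 54 gained one and 27 changed sign with a call in either setting; with 1 array left out these were 1481, 40, 19 and 0. The causes were not tested.

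Median centring in place of loess gave P56 against P5 medians of -0.63 for all subunits, -0.34 for the core (both reversed), -0.98 for ATPases and -0.83 for Psmd genes, with 23 lower and 0 higher; for P56 against E14.5 it gave -1.20, -0.72, -1.55 and -1.37 with 0 higher, for E18.5 against E14.5 -0.69 (all) and -0.79 (core), and for P5 against E18.5 0.12 and 0.30 with 0 lower. It also reversed Psma2 (-0.56), Psma4 (-0.58), Psma5 (-0.49), Psma8 (-0.46), Psmb2 (-0.45), Psmb3 (-0.15), Psmb5 (-0.080), Psmb7 (-0.67), Psmc5 (-0.78), Psmd7 (-0.57), Psmd8 (-0.67), Psmd10 (-0.26), Psmd13 (-0.69) and Psmd14 (-0.63) in P56 against P5, and Psma3 (-0.25), Psma6 (-0.37), Psmb1 (-0.36), Psmb3 (-0.36), Psmb6 (-0.11), Psmd8 (-0.64), Psmd9 (-0.66) and Psmd10 (-0.70) in P56 against E14.5. Scale normalization gave 12 lower and 0 higher at E18.5 against E14.5 (-0.44 all, -0.50 core), 0 lower at P5 against E18.5 (0.020 core, -0.27 ATPases), 2 lower at P56 against P5 (0.17 all, 0.52 core, -0.017 ATPases) and 1 higher at P56 against E14.5 (-0.40 all). The Cy5 channel alone gave -0.86 (all), -0.86 (core), -0.93 (ATPases), -0.75 (Psmd) and a core minus ATPase difference of 0.066 with 0 higher at E18.5 against E14.5, 0 lower and 1 higher at P5 against E18.5, 0.47 for the core at P56 against P5, and -0.73, -0.34, -1.20 and -0.85 with 0 higher at P56 against E14.5, where Psma3 reversed (-0.038).

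The scanner software's processed signals gave 0 higher (-0.50 all) at E18.5 against E14.5, 0.45 for the core at P56 against P5, and at P56 against E14.5 -0.43 (all), 0.084 (core), a core minus Psmd difference of 0.76 and 4 higher. Without background correction 1 was higher at P5 against E18.5 and 6 at P56 against E14.5 (-0.47 all). The authors' table gave 18 lower and 0 higher at E18.5 against E14.5, 0 lower at P5 against E18.5 (0.050 all), 2 lower at P56 against P5 (0.21 all), and 14 lower and 0 higher at P56 against E14.5 (-0.28 all, -0.60 ATPases, core minus ATPases 0.58). Psmc6 reversed there (0.60 against P5, 0.29 against E14.5) and with the mean over probes (0.53, 0.035), which gave -0.60 and -0.47 for all subunits at E18.5 and P56 against E14.5. Without a filter on dim probes 1 was higher at P56 against E14.5; with a value on every array the median was -0.43 there and 0.45 for the core against P5.

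The scan as a fixed block gave 18 lower at E18.5 against E14.5 (-0.46 all, -0.31 Psmd; the same within scan 1 alone) and 3 lower at P56 against P5 (0.049 all, -0.039 ATPases; the same within scan 4 alone); as a random block it gave 0 higher and -0.46 at P56 against E14.5. Replicate numbers did not pair the samples (1 of 15 correlations over 0.1, from -0.30 to 0.19); with the replicate block the median was 0.059 at P56 against P5 and 1 was higher at P56 against E14.5. Fitting only the arrays of both stages gave 0 lower at P5 against E18.5 and 1 higher at P56 against E14.5. The methods' t-test gave, after adjustment, 0 lower at P5 against E18.5, 0 lower and 0 higher at P56 against P5 and 0 higher at P56 against E14.5, and before it 4 higher and 0 higher at P5 against E18.5 and P56 against E14.5.

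The following choices were made after seeing the data: leaving out Psma8 and the chaperones Psmd5, Psmd9 and Psmd10 (0 higher at E18.5, 0 lower at P5), P56 against E18.5 (10 lower, core minus ATPases 0.77) and the values within a scan. Leaving out single arrays moved the medians of all subunits to -0.64 to -0.53, -0.050 to 0.037 and 0.049 to 0.15 in the 3 successive steps, and in P56 against P5 the ATPases to -0.31 to -0.039, the core to 0.34 to 0.44 and their difference to 0.44 to 0.74. Counts ran from 0 to 2 lower and 0 to 1 higher at P5 against E18.5, from 3 to 6 lower at P56 against P5 and from 0 to 5 higher at P56 against E14.5.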
